A study of Mus musculus with 12 samples.

Results

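The Tcstv genes of mouse chromosome 13, Tcstv1, Tcstv3 and the Tcstv-like genes AF067061 and BC147527, were followed across 12 RNA libraries of mouse embryonic stem cells. They were chosen by name and make up 4 of the 55266 genes in the annotation. All cells were of the E14 line, a mouse embryonic stem cell line, with the genotype 2C::3xtbGFP, a green fluorescent reporter of the 2-cell-like state. Every group was cultured for 48 h without the kinase inhibitors used for expansion, and was collected after sorbitol, which is a sugar alcohol that makes the medium hyperosmotic, had been present for 0, 6 or 24 h. Sorting by tbGFP (50000 cells) split each time point into a tbGFP-positive and a tbGFP-negative fraction, which gave 6 groups of 2 libraries. The 0 h cells are the comparison for both later times, and no cells held for 6 or 24 h without sorbitol were analysed here. The labels do not say whether the libraries of a group came from separate cultures, so p-values measure the spread between these libraries, which may be technical.

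Tcstv genes take their name from 2-cell-stage, variable group. They are transcribed in the mouse embryo when its genome is activated at the 2-cell stage, and again in the rare embryonic stem cells that pass through a 2-cell-like state, together with the Zscan4 genes and the targets of the transcription factor Dux. In mouse embryonic stem cells TCSTV1 and TCSTV3 have been linked to the maintenance of telomere length. What the proteins of AF067061 and BC147527 do is not described here.

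The 4 coding sequences are close copies of each other. The coding sequence has 513 bases in Tcstv1 and AF067061, 507 in Tcstv3 and 501 in BC147527. AF067061 and Tcstv1 were the most alike (95.3% of aligned coding bases identical), followed by Tcstv3 and AF067061 (94.7%) and Tcstv1 and Tcstv3 (93.4%). BC147527 stood farther off, at 90% identity to Tcstv3, 87.3% to AF067061 and 86.6% to Tcstv1. The start of each coding sequence is shown because these near-identical bases bear on how reads can be assigned to a gene. The 90 bases lie on GRCm38 at chr13:119894005-119894094 (minus strand) for Tcstv1, chr13:120317567-120317656 (plus) for Tcstv3, chr13:120263802-120263891 (plus) for AF067061 and chr13:120308146-120308235 (plus) for BC147527. Capitals mark bases that differ from the commonest base of the 4 genes.
Tcstv1: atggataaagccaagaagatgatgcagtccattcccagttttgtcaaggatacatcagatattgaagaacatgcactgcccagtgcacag
Tcstv3: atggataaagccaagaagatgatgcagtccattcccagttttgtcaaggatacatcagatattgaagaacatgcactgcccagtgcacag
AF067061: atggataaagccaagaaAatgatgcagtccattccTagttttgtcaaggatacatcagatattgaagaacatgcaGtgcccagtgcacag
BC147527: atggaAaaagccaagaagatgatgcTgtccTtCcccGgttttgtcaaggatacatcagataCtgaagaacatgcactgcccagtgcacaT
Tcstv1 and Tcstv3 were identical over this stretch, AF067061 had 3 differing bases and BC147527 had 7.

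Of the 4 genes, 2 had an upstream sequence in the RefSeq table (GRCm38.p6), AF067061 and BC147527. The 250 bases before the RefSeq start are printed for them and for Gm21761, a neighbouring gene with 97.5% coding identity to AF067061. Gm21761 was added because it differed strongly from AF067061 in counts. Its GENCODE gene spans chr13:119912095-119929272 (minus), so the window printed for it lies inside that gene. Whether this window lies upstream of the transcript that holds the Gm21761 counts was not tested. The windows lie at chr13:120262845-120263094 (plus) for AF067061, chr13:119913469-119913718 (minus) for Gm21761 and chr13:120300142-120300391 (plus) for BC147527. Capitals mark matches to the motifs searched.
AF067061: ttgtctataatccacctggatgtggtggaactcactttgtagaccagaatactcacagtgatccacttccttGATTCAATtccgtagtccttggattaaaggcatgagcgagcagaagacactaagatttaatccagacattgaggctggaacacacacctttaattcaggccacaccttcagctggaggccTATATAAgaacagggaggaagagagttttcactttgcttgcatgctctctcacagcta
Gm21761: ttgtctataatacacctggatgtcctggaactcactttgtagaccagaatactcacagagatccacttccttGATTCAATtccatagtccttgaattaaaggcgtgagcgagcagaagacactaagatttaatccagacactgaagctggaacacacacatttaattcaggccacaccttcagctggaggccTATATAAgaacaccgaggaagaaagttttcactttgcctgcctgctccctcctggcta
BC147527: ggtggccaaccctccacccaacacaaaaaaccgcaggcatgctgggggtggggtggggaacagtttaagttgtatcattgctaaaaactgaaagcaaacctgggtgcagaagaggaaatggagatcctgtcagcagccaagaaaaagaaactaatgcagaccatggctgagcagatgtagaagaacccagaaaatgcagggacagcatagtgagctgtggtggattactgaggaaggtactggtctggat
The AF067061 and Gm21761 windows were identical at 231 of 250 positions (92.4%). Both held the TATA-box letters TATATAA starting 58 bases before the start, and both held GATTCAAT 178 bases before it. The BC147527 window held neither. The motifs were searched on both strands in RefSeq windows of the 250 bases before the start. TATATAA occurred in 3.04% and GATTCAAT in 0.460% of 32851 such windows. The latter was picked after the AF067061 sequence was seen, and its letters overlap those of the Dux motif. That motif (0.0304% of windows) and the Zscan4 motif TGCACAC (3.67%) had no match in the windows of AF067061 and BC147527.

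The deposited counts are per transcript, and for these genes they come from only part of the RNA. Transcripts that share all of their bases with another annotated transcript had almost no counts: of 35349 such transcripts of at least 200 bases, in genes with several transcripts, 13 (0.0368%) had any. Among transcripts with at least 100 bases of their own, 39253 of 49836 (78.8%) had counts. Each Tcstv gene has 2 annotated transcripts that share part of their exon bases, so a level here is the level of the bases that belong to a single transcript. Tcstv1 (ENSMUSG00000096284.2, chr13:119893388-119894785, minus strand) had all of its 389 counts on Tcstv1-201, whose 523 own bases (chr13:119894123-119894645) are the intron of the spliced Tcstv1-202. AF067061 (ENSMUSG00000095071.2, chr13:120263114-120264517, plus) had 1274 of 1477 counts on AF067061-201, whose 523 own bases (chr13:120263251-120263773) are likewise the intron of AF067061-202. The other 203 counts lay on the own ends of AF067061-202. Tcstv3 (ENSMUSG00000095821.2, chr13:120316878-120318178, plus) had all 2637 counts on the 269 own bases of Tcstv3-202, at both ends outside the coding sequence. BC147527 (ENSMUSG00000094796.2, chr13:120300392-120308779, plus) had all 2437 counts on the 1091 own bases of BC147527-202, most of which lie in exons upstream of the coding sequence.

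**Figure D1:**
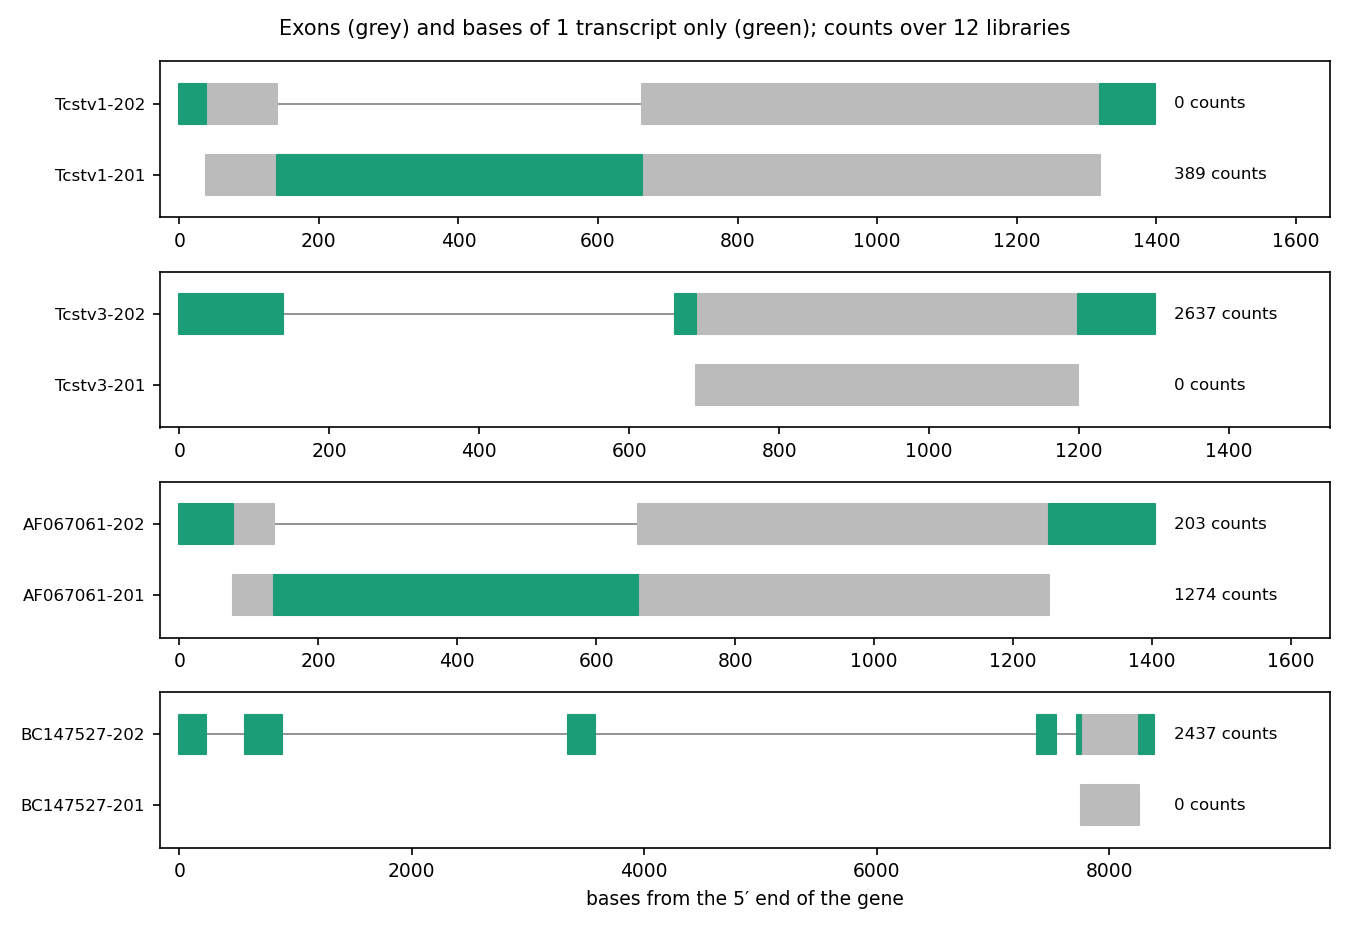
The 2 annotated transcripts of each Tcstv gene, drawn from the 5′ end in bases, with exons in grey, introns as lines and bases of a single transcript in green. The counts at the right are sums over the 12 libraries; 1 transcript of Tcstv1, of Tcstv3 and of BC147527 had 0 counts.

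Windows of 50 own bases were compared with the annotated transcripts of all other genes. None of the windows of Tcstv1 and AF067061 recurred elsewhere. Of 143 windows of Tcstv3, 48 (33.6%) also occurred in a transcript of D13Ertd608e, Gm21762, Gm21818 or Tcstv1, and 122 of 818 windows of BC147527 (14.9%) occurred in Gm8953. The counts of Tcstv3 and BC147527 are to that extent uncertain between copies, and matches outside annotated transcripts were not searched.

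Before sorbitol, RNA of all 4 Tcstv genes was found in tbGFP-positive cells and none was counted in tbGFP-negative cells. Tcstv1 had 46 and 72 counts in the tbGFP-positive libraries (8.78 and 17.7 CPM, counts scaled to the size of the library), Tcstv3 had 487 and 393 (92.9 and 96.7 CPM), AF067061 had 131 and 172 (24.99 and 42.3 CPM), and BC147527 had 448 and 576 (85.5 and 141.8 CPM). Both tbGFP-negative libraries had 0 counts for each gene, so the fractions did not overlap. Set against a floor of 3 counts over the tbGFP-negative group, the excess was at least 437-fold for BC147527, 364-fold for Tcstv3, 129-fold for AF067061 and 50.9-fold for Tcstv1. All 4 passed edgeR's quasi-likelihood test (p adjusted over 19384 genes by Benjamini-Hochberg), in which 6.66% of all genes were called higher. The adjusted p was 4.93e-08 for Tcstv3, 1.88e-06 for AF067061, 0.000183 for BC147527 and 0.00107 for Tcstv1. The sort selected cells by a reporter of the 2-cell program, to which the Tcstv genes belong.

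At 6 h the separation had the same form, with 0 counts for all 4 genes in both tbGFP-negative libraries. In tbGFP-positive cells Tcstv1 was at 18.0 and 14.8 CPM (60 and 105 counts), Tcstv3 at 138.3 and 73.1 CPM (460 and 517 counts), AF067061 at 85.4 and 75.6 CPM (284 and 535 counts) and BC147527 at 120.0 and 26.7 CPM (399 and 189 counts). All 4 were called higher (6.92% of all genes), with adjusted p from edgeR's quasi-likelihood test of 4.16e-08 for Tcstv3, 4.41e-07 for AF067061, 0.000321 for BC147527 and 0.000712 for Tcstv1. The lower bounds were 381-fold for Tcstv3, 290-fold for AF067061, 264-fold for BC147527 and 59.2-fold for Tcstv1.

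At 24 h counts appeared in tbGFP-negative cells for 3 of the 4 genes, and the fractions still did not overlap for any. Tcstv3 was at 62.6 and 57.4 CPM in tbGFP-positive and 2.27 and 1.64 CPM in tbGFP-negative libraries (log2 fold change 4.91 ± 0.39, SE; edgeR adjusted p = 1.00e-06). Tcstv1 was at 7.78 and 8.51 CPM against 0 and 4 counts (4.99 ± 1.00, edgeR adjusted p = 0.00684). BC147527 was at 62.4 and 67.8 CPM against 10 and 0 counts (6.82 ± 0.92, edgeR adjusted p = 0.000555). AF067061 was at 25.8 and 30.7 CPM and had no counts in either tbGFP-negative library, at least 166-fold apart (edgeR adjusted p = 1.14e-06). All 4 were again called higher, against 5.35% of all genes. The Tcstv1 call was lost without tbGFP-negative replicate 1 at 24 h (4.02, adjusted p = 0.0699, the highest over its 21 alternatives, whose lowest was 1.29e-05).

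**Figure D2:**
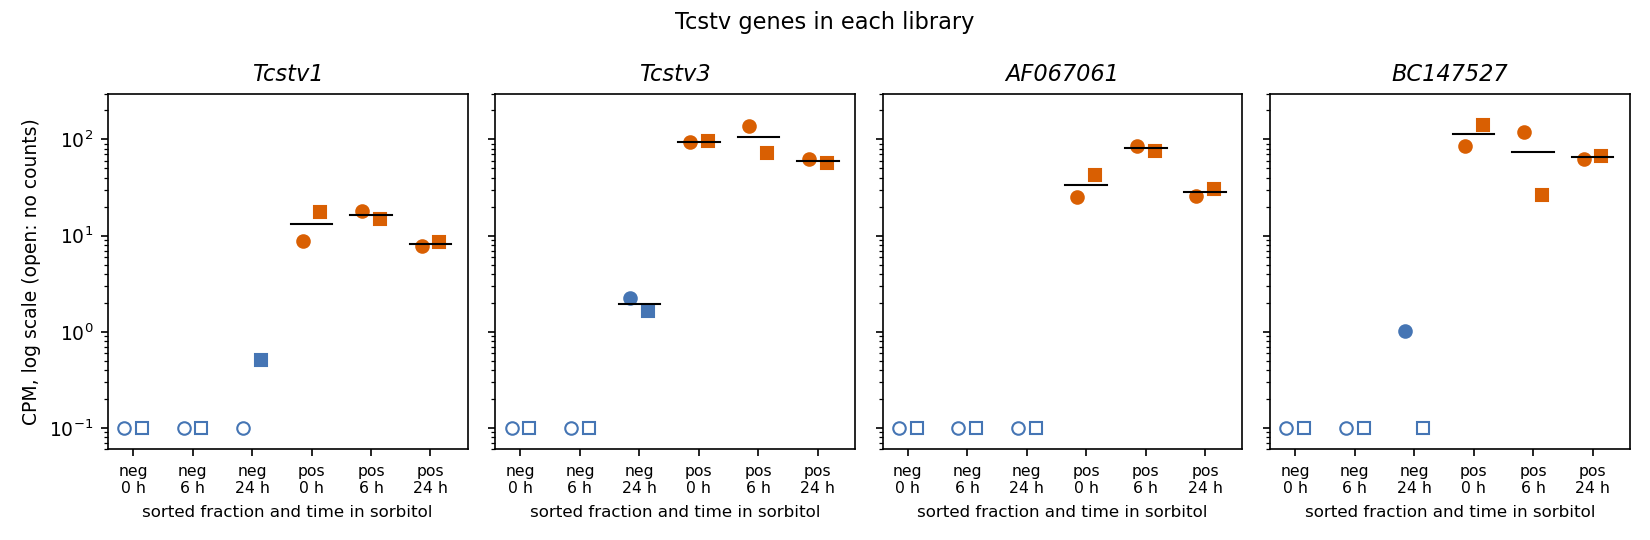
CPM of each Tcstv gene in each library on a log scale, by sorted fraction (neg, tbGFP-negative, blue; pos, tbGFP-positive, orange) and time in sorbitol; circles are replicate 1, squares replicate 2, bars the mean of 2 libraries, and open symbols at the bottom libraries with no counts. All positive libraries lie above all negative ones in every panel, and BC147527 at 6 h shows the widest spread between replicates, at 120.0 and 26.7 CPM.

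Libraries held 2306870 to 7900178 counts, and the shallowest was a tbGFP-negative library at 0 h. No pair of libraries was identical. The tbGFP-positive libraries at 6 h had the fewest genes with counts (17445 and 17545). The stem cell label was met: all 15 pluripotency markers had counts in both fractions, with summed levels of 9328 to 11370 CPM in tbGFP-negative and 8326 to 11970 CPM in tbGFP-positive libraries. Pou5f1, which encodes the pluripotency factor OCT4, was at 599.6 to 1413 CPM in tbGFP-positive and 675.3 to 1863 CPM in tbGFP-negative libraries. The 2-cell gene Zscan4d marked the sort, at 9097 to 19720 against 4.84 to 232.1 CPM. Summed trophectoderm markers also moved with the fraction. The 10 trophectoderm markers summed to 46.8 to 86.6 CPM in tbGFP-negative and 87.2 to 235.2 CPM in tbGFP-positive libraries. The 10 fibroblast markers overlapped (15.5 to 25.6 and 19.9 to 79.8 CPM), with Postn, Pdgfrb and Twist2 at 0 in both fractions. The 10 primitive endoderm markers overlapped as well (149 to 310 and 123 to 254 CPM; Sox17 at 0 in tbGFP-negative, Gata4 and Foxa2 at 0 in tbGFP-positive cells). Their part in the Tcstv results was not tested.

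Within tbGFP-positive cells Tcstv3 had the highest level per kilobase of own bases and Tcstv1 the lowest at all 3 times. At 0 h Tcstv3 led with 352.5 CPM per kilobase, followed by BC147527 (104.2), AF067061 (44.7) and Tcstv1 (20.7), and no library of a gene reached the range of its neighbour in this order. At 6 h Tcstv3 stood at 392.9, AF067061 at 106.9, BC147527 at 67.2 and Tcstv1 at 25.6 CPM per kilobase. AF067061 (113.4 and 100.4) and BC147527 (110.0 and 24.5) overlapped there, and so did BC147527 and Tcstv1 (28.1 and 23.2). At 24 h the order was that of 0 h, with Tcstv3 at 222.9, BC147527 at 59.7, AF067061 at 37.5 and Tcstv1 at 12.7, and neighbours did not overlap. These values describe the own bases, which lie in different parts of each gene. Together the 4 genes made up 0.0139% to 0.0336% of the counts of a tbGFP-positive library. Of the Tcstv counts, AF067061 gave 11.8% and 14.2% (0 h), 23.6% and 39.7% (6 h) and 16.3% and 18.7% (24 h). BC147527 gave 40.3% and 47.5%, then 33.2% and 14.0%, then 39.4% and 41.3%.

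Across time in tbGFP-positive cells AF067061 was the only Tcstv gene called, between 6 and 24 h. From 6 to 24 h it fell from 80.5 ± 6.91 to 28.2 ± 3.43 CPM (SD, n = 2), a log2 fold change of -1.51 ± 0.37 (SE; edgeR adjusted p = 0.0289), and the 2 groups did not overlap. It was the only 1 of the 4 called in this comparison, where 2.9% of all genes were called lower and 5.89% higher. The call did not hold in all fits: the adjusted p was 0.217 with only the compared libraries, 0.197 without tbGFP-positive replicate 1 and 0.138 without replicate 2 at 24 h, within a range of 0.00284 to 0.909 over 21 alternatives. The highest was for AF067061-202 taken alone. The fit with only the compared libraries called 0 of all 15227 genes higher and 0 lower.

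Tcstv3 was at 106 ± 46.1 CPM at 6 h and 59.97 ± 3.69 CPM at 24 h (SD, n = 2; -0.81 ± 0.31 on the log2 scale, edgeR adjusted p = 0.118). Both 24 h libraries lay below both 6 h libraries. Without tbGFP-positive replicate 2 at 6 h the log2 fold change of Tcstv3 was -1.17, within -1.17 to -0.23 over 20 alternatives. Tcstv1 was at 16.4 ± 2.26 and 8.14 ± 0.517 CPM (-1.01 ± 0.77, edgeR adjusted p = 0.426), again with no overlap. BC147527 was at 73.3 ± 65.9 and 65.1 ± 3.80 CPM (-0.16 ± 0.63, edgeR adjusted p = 0.906). Its 6 h libraries lay on either side of the 24 h libraries, and its sign turned without tbGFP-positive replicate 1 at 6 h (1.34, adjusted p = 0.0629).

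From 0 to 6 h none of the 4 passed in tbGFP-positive cells with edgeR, where 2.14% of all genes were called higher and 3.76% lower. At an unadjusted p under 0.05 there was 1 (4734 of all 19384 genes), AF067061, which DESeq2 called higher as well (910 of all genes). AF067061 went from 24.99 and 42.3 to 85.4 and 75.6 CPM, with both 6 h libraries above both 0 h libraries (1.26 ± 0.37 on the log2 scale, edgeR adjusted p = 0.0651). Its adjusted p was 0.0213 with DESeq2, and over 21 alternatives its log2 fold change ranged from 0.8355 to 1.809. Tcstv1 (0.31 ± 0.76, edgeR adjusted p = 0.851), Tcstv3 (0.15 ± 0.31, adjusted p = 0.957) and BC147527 (-0.65 ± 0.63, adjusted p = 0.572) had overlapping libraries at the 2 times. The BC147527 value rested on the tbGFP-positive libraries at 6 h. Without replicate 1 the log2 fold change of BC147527 was -2.18, within -2.18 to -0.002 over 20 alternatives.

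After 24 h none of the 4 differed from 0 h at the threshold with edgeR, against 0.304% of all genes called higher and 0.248% lower. None passed at an unadjusted p under 0.05 (0 of 4, and 1875 of all 19384 genes) or with DESeq2 (0 of 4). DESeq2 called 204 of all genes higher and 292 lower. Point values were below those at 0 h: BC147527 at -0.80 ± 0.63, Tcstv1 at -0.70 ± 0.77, Tcstv3 at -0.66 ± 0.31 and AF067061 at -0.25 ± 0.37 on the log2 scale (edgeR adjusted p of 0.795, 0.881, 0.527 and 0.920). For BC147527, Tcstv1 and Tcstv3 both 24 h libraries lay below both 0 h libraries, and for AF067061 they overlapped.

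The split of AF067061 counts over its transcripts differed between the times. AF067061-202, annotated as spliced, held 8.40% and 6.40% (0 h), 10.2% and 11.96% (6 h) and 25.3% and 24.4% (24 h) of the gene's counts. Its own bases are its outer ends (77 and 153 bases) and do not include its splice junction. These shares therefore do not measure splicing. Both 24 h libraries lay above all libraries of the other times. The exact 95% counting interval was 18.5% to 33.2% and 18.7% to 30.8% in the 24 h libraries, and 4.27% to 14.5% and 3.24% to 11.2% in the 0 h libraries. Intervals here cover counting error alone, and with 2 libraries a group the share itself was not tested. In level, AF067061-201 was at 31.3 ± 11.8, 71.6 ± 7.14 and 21.2 ± 2.77 CPM and AF067061-202 at 2.40 ± 0.431, 8.88 ± 0.231 and 7.01 ± 0.666 CPM at 0, 6 and 24 h (SD, n = 2). Fitted by transcript, the fall from 6 to 24 h was called for AF067061-201 (-1.63 ± 0.41, edgeR adjusted p = 0.0249) and not for AF067061-202 (-0.22 ± 0.93, adjusted p = 0.909). The difference between the transcripts was not tested.

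Duxf3, the annotated name of Dux, which activates 2-cell genes, is set beside AF067061 as a known activator of the program, and was chosen after its values were seen. In tbGFP-positive cells its libraries were at 119.4 and 78.5 CPM (0 h), 180.7 and 305.8 CPM (6 h) and 48.1 and 41.96 CPM (24 h), highest at 6 h. It rose from 0 to 6 h (1.30 ± 0.31, edgeR adjusted p = 0.0254) and fell from 6 to 24 h (-2.44 ± 0.32, adjusted p = 0.000889). It was the only 1 of 36 tested genes of a 2-cell list called higher from 0 to 6 h in these cells. The 4 called lower were Arap2 (-1.66 ± 0.24, adjusted p = 0.00213), Tdpoz2 (-1.59 ± 0.43), Tdpoz4 (-0.95 ± 0.24) and Zscan4d (-0.74 ± 0.17).

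**Figure D3:**
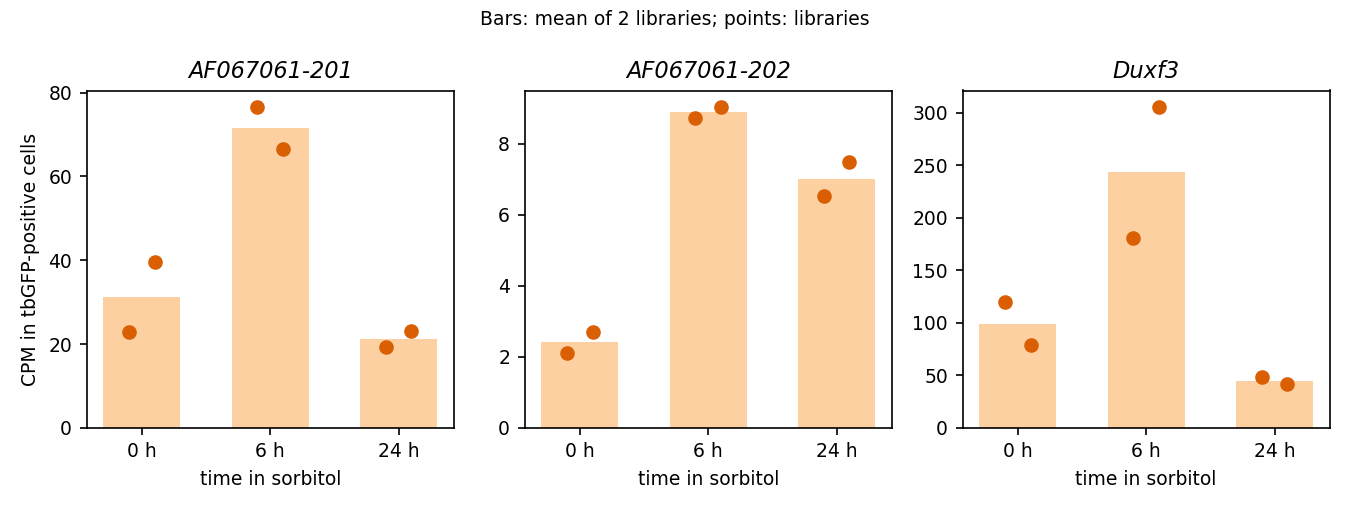
CPM in tbGFP-positive cells of the AF067061 transcripts and of Duxf3 at 0, 6 and 24 h of sorbitol (linear axes that differ between panels); bars are means of 2 libraries and points are libraries. AF067061-201 and Duxf3 were highest at 6 h, and AF067061-202 stayed at 7.01 CPM at 24 h against 8.88 CPM at 6 h.

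In tbGFP-negative cells Tcstv RNA was first counted at 24 h, and Tcstv3 was the only 1 of the 4 called higher. Of its 143 own windows, 48 also occur in D13Ertd608e, Gm21762, Gm21818 or Tcstv1, so its counts are uncertain between these copies. At 0 h and 6 h all 4 genes had 0 counts in all 4 libraries, which allows up to 0.260 CPM at 0 h and 0.278 CPM at 6 h for a group (3 counts over its libraries). At 24 h Tcstv3 had 22 and 13 counts (1.955 ± 0.441 CPM, SD, n = 2), at least 7.51-fold above 0 h (edgeR adjusted p = 0.00397; 2.7% of all genes were called higher) and at least 7.05-fold above 6 h (adjusted p = 0.00298; 3.62% of all genes). The call against 0 h was lost without tbGFP-negative replicate 2 at 0 h (adjusted p = 0.218; 1.32e-06 to 0.218 over 21 alternatives), which leaves the shallowest library alone. BC147527 had counts only in replicate 1 (10 counts) and Tcstv1 only in replicate 2 (4 counts), with edgeR adjusted p of 0.547 and 0.500 against 0 h. AF067061 had 0 counts at 24 h as well, which allows up to 0.170 CPM. In bulk RNA, a larger number of tbGFP-low cells with Tcstv RNA and more RNA per cell cannot be told apart.

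As a percentage of the tbGFP-positive level at 24 h, Tcstv3 in tbGFP-negative cells stood at 3.33% (95% counting interval 2.30% to 4.67%), Tcstv1 at 2.78% (0.742% to 7.33%) and BC147527 at 0.869% (0.415% to 1.61%). The intervals of Tcstv3 and BC147527 do not overlap, but they leave out the spread between libraries. All 10 counts of BC147527 in tbGFP-negative cells came from 1 library. The difference between these genes was not tested. AF067061 was at 0, which allows up to 0.740% by the interval. The 33 genes of the 2-cell list with at least 100 counts in tbGFP-positive cells had a median of 2.45% and a range of 0% to 37.9%. Whether sorting let some tbGFP-positive cells through was not tested.

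**Figure D4:**
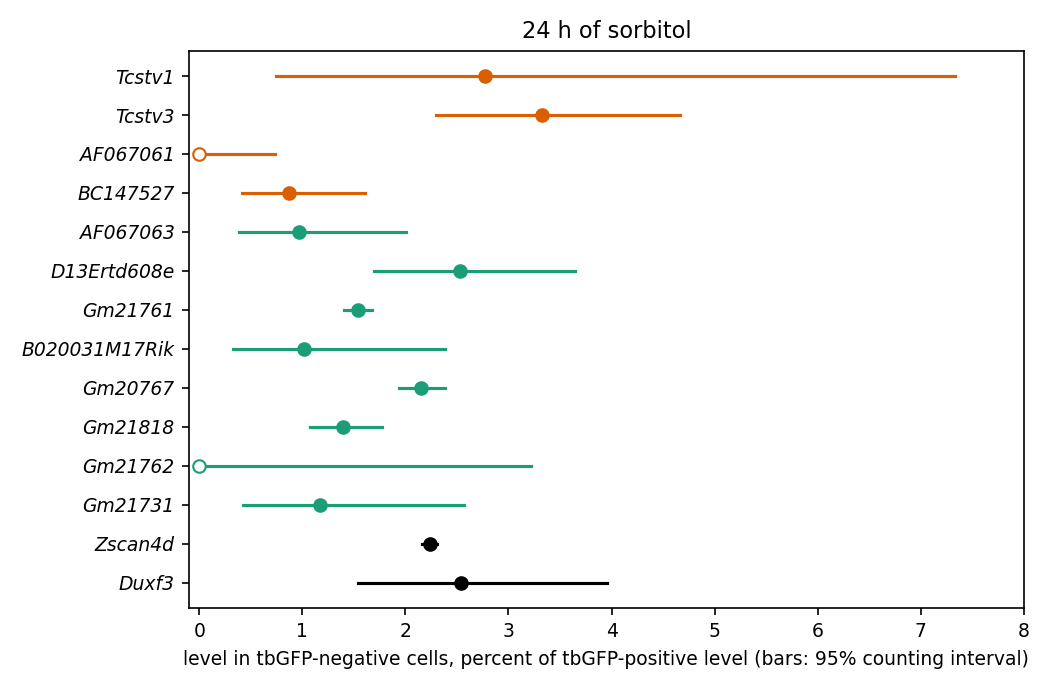
Level in tbGFP-negative cells as a percentage of the level in tbGFP-positive cells at 24 h, with 95% counting intervals, for the Tcstv genes (orange), 8 related genes of the same region (green) and Zscan4d and Duxf3 (black); open points are genes with 0 counts in tbGFP-negative cells. Tcstv3 lies at 3.33% and AF067061 at 0.

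The gap between fractions narrowed from 0 to 24 h for Tcstv3, by the test of the difference itself (edgeR interaction, adjusted p = 0.00588; 0.949% of all genes were called in this direction). No value is given for its size because the tbGFP-negative group at 0 h had no counts. The call was lost without tbGFP-negative replicate 2 at 0 h (adjusted p = 0.378, within 2.92e-08 to 0.378 over 21 alternatives). Tcstv1 and BC147527 did not pass (edgeR adjusted p = 1.00 for each), and for AF067061, with no counts in any tbGFP-negative library, the change of the gap could not be fitted. Neither could it for any of the 4 genes between 0 and 6 h. A narrower gap from 0 to 24 h was also called for 21 of 36 tested genes of the 2-cell list.

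The Tcstv genes lie in a cluster of close relatives, several of which had far more counts on their own bases. Within 500000 bases of a Tcstv gene, 8 other protein-coding genes had coding sequences at least 60% identical to a member, a threshold set after the data were seen: Gm21761 (97.5%, to AF067061), Gm21818 (96.1%, to Tcstv1), Gm20767 (95.5%, to AF067061), B020031M17Rik (89.0%), AF067063 (78.3%), D13Ertd608e and Gm21762 (74.2% each) and Gm21731 (72.0%). All 8 were called higher in tbGFP-positive cells at 0, 6 and 24 h, as the 4 Tcstv genes were. The shares of all genes called higher were 6.66%, 6.92% and 5.35%. D13Ertd608e lost the call in several alternatives at each time (adjusted p up to 0.205, 0.108 and 0.350), Gm21762 in 1 at 0 h (0.0803) and 1 at 6 h (0.0648), and Gm21731 in 1 at 6 h (0.124). D13Ertd608e and Gm21762 have 99.8% identical coding sequences, and whether the own bases of the relatives recur in other transcripts was not tested.

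In tbGFP-positive cells Gm21761 was at 1856 and 2468 CPM (0 h), 2133 and 1643 CPM (6 h) and 1940 and 1678 CPM (24 h). Per kilobase of own bases that was 2520 CPM at 0 h, against 44.7 for AF067061, its nearest copy. Of the 753 own bases of AF067061, 523 are the intron of its spliced transcript. Which parts of Gm21761 hold its own bases was not tested, so these values may describe unlike parts of the genes. Gm20767 was at 1451 ± 102, 830.1 ± 195 and 999.2 ± 69.2 CPM, and Gm21818 at 383 ± 81.9, 222 ± 30.9 and 273 ± 9.49 CPM (SD, n = 2). None of the 8 was called across time in tbGFP-positive cells with edgeR. From 0 to 6 h, 4 had an unadjusted p under 0.05 (4734 of all 19384 genes), and DESeq2 called 3 lower (1509 of all genes). From 6 to 24 h, 2 had an unadjusted p under 0.05 (5349 of all genes), and DESeq2 called 0. From 0 to 24 h both counts for the 8 were 0. The log2 fold change of Gm21761 from 0 to 6 h was -0.20 ± 0.27, against 1.26 ± 0.37 for AF067061. The difference between the 2 genes was not tested.

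In tbGFP-negative cells 3 of the 8 rose from 0 to 24 h, where 2.7% of all genes were called higher. Gm21761 went from 0.848 to 27.4 CPM (4.45 ± 0.43, edgeR adjusted p = 1.79e-05) and Gm20767 from 0.905 to 21.4 CPM (4.002 ± 0.50, adjusted p = 0.000169). The 0 h counts of both came from replicate 2 alone (0 and 15 for Gm21761, 0 and 16 for Gm20767). Their log2 fold changes ranged from 4 to 10.25 and from 3.55 to 9.89 over 20 alternatives, so the sizes are uncertain. Gm21818 went from 1 count to 67, 43.9 times the earlier level (counting interval 7.61 to 1758) (adjusted p = 0.000434). The Gm21818 call was lost without tbGFP-negative replicate 2 at 0 h (adjusted p = 0.111), and the Gm20767 call with every gene of any count tested (adjusted p = 0.0506). Of the other genes of the region, 17 were tested, and 2 of them, the pseudogenes Gm21358 and Gm37619, were called higher in tbGFP-positive cells at all 3 times. The shares of all genes called higher at 0, 6 and 24 h were 6.66%, 6.92% and 5.35%. Gm9752 was called lower at 6 h, with 0 counts in tbGFP-positive and 40 in tbGFP-negative cells (edgeR adjusted p = 0.00414; 5.22% of all genes were called lower). Neighbours such as Hmgcs1, which encodes an enzyme of cholesterol synthesis, and Paip1, which encodes a partner of the poly(A)-binding protein, were not called at any time between the fractions. They had only 119 and 231 counts over the 12 libraries, so a difference could be missed.

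**Figure D5:**
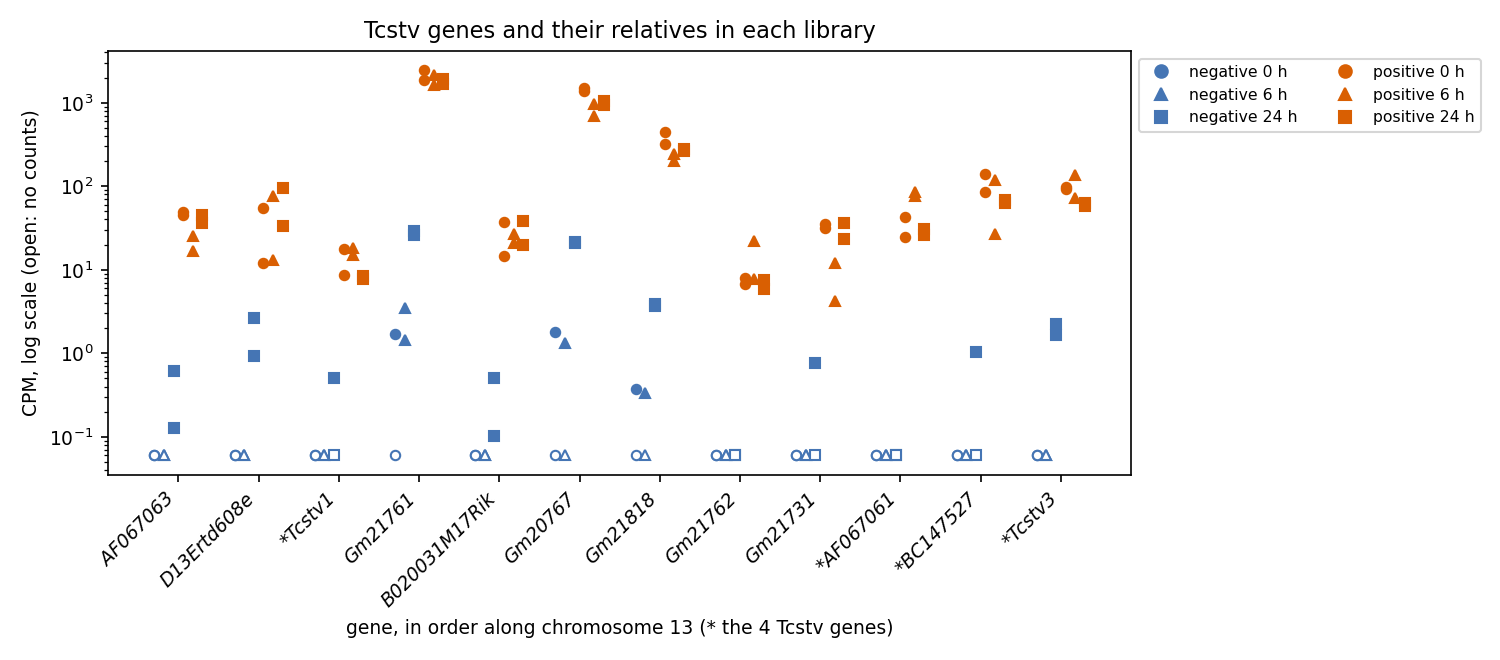
CPM of the 4 Tcstv genes (starred) and their 8 relatives in each library on a log scale, in order along chromosome 13; blue marks tbGFP-negative and orange tbGFP-positive libraries, and circles, triangles and squares mark 0, 6 and 24 h, with open symbols for libraries without counts. Gm21761 and Gm20767 lie highest in tbGFP-positive cells, and most blue symbols above the floor are from 24 h.

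Other genes of the 2-cell program were also higher in tbGFP-positive cells. A list of 2-cell genes had 36 tested members, of which 35 (0 h), 34 (6 h) and 35 (24 h) were called higher in the tbGFP-positive fraction (6.66%, 6.92% and 5.35% of all genes), with a median log2 fold change of 10.22, 8.66 and 5.35, or 8.93, 8.49 and 5.32 when genes missing from a group took their lower bound. The median over all genes was 0, -0.07 and -0.05. In tbGFP-positive cells 1 of the 36 rose and 4 fell from 0 to 6 h (2.14% of all genes were called higher and 3.76% lower), and 5 rose and 6 fell from 6 to 24 h (5.89% and 2.9% of all genes). From 0 to 24 h, where 0.248% of all genes were called lower, 1 fell, Zscan4d (-0.95 ± 0.17, edgeR adjusted p = 0.0207). In tbGFP-negative cells 11 of the 36 rose from 0 to 6 h (3.22% of all genes were called higher), when no Tcstv RNA was counted, and 23 rose from 0 to 24 h (2.7% of all genes). At 6 h the Tcstv genes were at 16.4 to 106 CPM in tbGFP-positive cells, with a floor of 0.278 CPM in tbGFP-negative cells. Zscan4d was at 11320 and 16.9 CPM in these fractions. Depth limits this comparison, and whether the Tcstv genes rose later than the listed genes was not tested.

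Genes of telomere maintenance, the function to which Tcstv1 and Tcstv3 have been linked, passed the test between fractions at shares close to those of all genes. Of 16 tested, 1 was called at 0 h (6.66% of all genes were called higher and 0.449% lower). An unadjusted p under 0.05 was found for 3 (3168 of all 19384 genes). The called gene, higher in tbGFP-positive cells, was Ctc1, of the complex that protects telomere ends (22.0 ± 5.77 against 6.12 ± 2.87 CPM, 1.77 ± 0.46, edgeR adjusted p = 0.0251). At 6 h 2 of the 16 were called (6.92% of all genes higher, 5.22% lower), and 6 had an unadjusted p under 0.05 (5498 of all genes). Pot1a, a shelterin gene, was higher (24.3 ± 10.2 against 10.1 ± 3.18 CPM, 1.24 ± 0.36, adjusted p = 0.0381), and Tert, the telomerase reverse transcriptase gene, was lower, with 0 counts in tbGFP-positive cells (adjusted p = 0.0116). At 24 h edgeR called 0 of the 16 (5.35% of all genes higher, 0.113% lower), and 0 had an unadjusted p under 0.05 (2274 of all genes). The median log2 fold changes were -0.23, -0.52 and -0.15.

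The profiles nearest to each Tcstv gene over the 12 libraries were sought by the root mean square difference of centred log2(CPM + 1) values among 19383 other genes. The nearest were Gm9045 to Tcstv1 (0.23), Gm8701 to Tcstv3 (0.30), Gm49559 to AF067061 (0.33) and Rpl7a-ps2 to BC147527 (0.49), against medians over all genes of 1.98, 3.10, 2.87 and 3.19. The next nearest were Gm42662, Obox4-ps13, Obox4-ps11 and Gm45422 for Tcstv1, and Gm43225, Usp17lb, Gm4301 and Gm31641 for Tcstv3. For AF067061 they were A530040E14Rik, Gm20765, Gm8953 and Rfpl4b, and for BC147527 Gm48399, Gm38642, Gm8701 and Gm43937. Among the 4 genes, Tcstv3 and BC147527 were nearest to each other (0.58), and Tcstv1 and BC147527 farthest apart (1.40). This measure depends on level, and all genes share the same libraries.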

How the data were processed

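The kit for the total RNA libraries keeps strand, per the labels' protocols. FastQC, HISAT2, featureCounts, DESeq2 and the build mm10 are named in the submitters' processing notes, without versions. Raw counts of each transcript, made by the authors, are what the deposited files hold. How reads that match several places or transcripts, and the strand, were handled is not given in the sources used here.

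Counts of 141536 of 142446 transcripts were summed per gene (GENCODE M21); the other 910 held 0.0606% to 0.0903% of a library's counts. The 19384 genes that reached 10 counts in 2 or more libraries were tested in edgeR 4.0.16 (R 4.3.3; TMM, robust quasi-likelihood, 6 group means) with Benjamini-Hochberg adjustment and a threshold of 0.05. CPM used TMM-scaled totals. DESeq2 1.42.0 and other scalings, filters, fits and left-out libraries were alternatives. The procedure was run on simulated counts to see whether set changes were recovered. These changes were set only in genes of higher count, with less spread than the common estimate of these data. How the procedure performs for genes with few counts was not tested. Fold bounds use a floor of 3 counts over a group.

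The members, the gene lists and the rules for naming genes were chosen with earlier results of these data known. Named were the 4 members, tested genes of the region, the 5 nearest profiles per member, and called list genes with the largest and smallest change. Only some of the genes so picked are printed. Upstream sequences were matched to RefSeq by symbol.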

Additional observations from a re-analysis of the deposited data

Results flagged for a closer look

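The gap between tbGFP-positive and tbGFP-negative cells changed from 0 to 24 h for Tcstv3 by a test of that difference (edgeR interaction, adjusted p = 0.00588), with both tbGFP-negative libraries at 24 h above both at 0 h. In this direction 0.949% of all genes were called, and 21 of 36 tested genes of the 2-cell list, so the change was not particular to Tcstv3. The same test passed for 3 relatives, Gm21761 (-4.71 ± 0.52 on the log2 scale, adjusted p = 0.000103), Gm20767 (-4.54 ± 0.60, adjusted p = 0.000604) and Gm21818 (adjusted p = 0.000756; no size is given because the tbGFP-negative cells had 1 count at 0 h). The sizes are uncertain, at -10.55 to -4.257 for Gm21761 and -10.47 to -4.085 for Gm20767 over 20 alternatives. Both genes had tbGFP-negative counts at 0 h in replicate 2 alone. Gm21818 lost the call without tbGFP-negative replicate 2 at 0 h (adjusted p = 0.159), and Gm20767 lost it with every gene of any count tested (adjusted p = 0.189).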

How the results depend on the processing

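All 4 Tcstv genes kept a higher level in tbGFP-positive cells at 0, 6 and 24 h in all alternatives run, and the number called stayed within 1.5 times of 4. Leaving out a library moved the number of Tcstv genes called between 0 and 1 (higher) and 0 and 1 (lower) from 0 to 6 h in tbGFP-positive cells, between 0 and 2 (lower) from 6 to 24 h there, and between 0 and 1 (higher) from 0 to 24 h in tbGFP-negative cells. DESeq2 called 1 higher from 0 to 6 h, and 910 of all 19384 genes. A fit of the compared libraries alone called 0 lower from 6 to 24 h, and 0 of all 15227 genes. Leaving out a library also moved the number of all genes called. The cause was not tested. The sign turned, without a call, for Tcstv3 from 0 to 6 h with every gene of any count (-0.0097) and without tbGFP-positive replicate 1 at 6 h (-0.47, up to 0.46 with another library left out), for Tcstv1 from 0 to 6 h without tbGFP-positive replicate 1 at 0 h (-0.20, up to 0.81), for AF067061 from 0 to 24 h without tbGFP-positive replicate 2 at 0 h (0.13, down to -0.63) and for AF067061-202 alone (1.59), and for BC147527 from 6 to 24 h without tbGFP-positive replicate 1 at 6 h (1.34, down to -0.84). Replicate numbers did not pair the libraries (correlations of deviations from -0.04 to 0.03). With the replicate as a block no Tcstv call changed, and BC147527 from 6 to 24 h turned to 0.038. Scaling moved the median of all genes by up to -0.42 (library totals alone, fractions at 24 h), and turned no Tcstv direction between fractions. Tcstv1, with 4 counts in tbGFP-negative cells, is limited by depth.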
